A study of Drosophila melanogaster with 21 samples.

Results

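The cytosolic ribosomal protein genes of Drosophila were followed through the depletion of Ush, dMi-2 and Ush-B in S2 cells. Members were all listed genes whose symbol begins with RpL or RpS followed by a digit or the letter P. This rule found 92 of 17737 listed genes, of which 38 carry the name of a protein of the small (40S) subunit and 54 that of a protein of the large (60S) subunit, 4 stalk genes included. Mitochondrial ribosomal protein genes (mRpL, mRpS) were left out.

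Ribosomal proteins assemble with ribosomal RNA in the nucleolus into the subunits that translate mRNA in the cytoplasm. The subunits need most of these proteins in equal numbers, and the genes are among the most strongly transcribed of growing cells. In Drosophila, loss of 1 copy of many of them gives the Minute phenotype of slow development and thin bristles. Several exist as pairs of paralogs in which a copy is used in most tissues and the other is known mainly from the gonads.

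S2 cells are a line of hemocyte (blood cell) character derived from embryos. They were transfected with dsRNA against ush (dsUsh, 3 libraries), which encodes the FOG family cofactor U-shaped, or against dMi-2 (dsMi-2, 3 libraries), the ATPase of the NuRD chromatin remodelling complex, beside 3 control libraries with dsRNA against EGFP (dsEGFP). In a second set, 4 libraries with dsRNA against the isoform Ush-B (dsUsh-B) stood beside 4 dsEGFP libraries of their own. RNA was taken on day 4 after transfection. All groups share the line, its medium and a transfected dsRNA, so no library shows untransfected cells. The study's methods describe a derived line that expresses Cas9 and 3 independent transfections, and do not say what the 4 libraries of each Ush-B group are. The p-values measure the spread between these libraries.

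Values are the deposited normalised counts, that is, reads per gene divided by a size factor of the library. The sets were normalised separately, and levels are compared only within a set. Reads on genes ranged from 21366051 to 26101822 per library in the first set and from 46181614 to 59387417 in the Ush-B set. Mi-2 had 1125 to 1567 normalised counts in dsMi-2 cells, against 4273 to 5417 in dsEGFP cells (log2 fold change -1.97 ± 0.15, SE, n = 3 each, limma adjusted p = 6.93e-05). The targeted gene ush had 3341 to 4089 normalised counts in dsUsh cells, against 3929 to 5276 in dsEGFP cells (log2 fold change -0.31 ± 0.13, SE, adjusted p = 0.0978), so its mRNA ranges overlapped. Whether reads of the transfected dsRNA entered this count was not tested. In dsUsh-B cells the total ush count of 6464 to 9993 overlapped the 6411 to 10369 of its controls, and reads of the isoform alone were not separated. At the protein level, the study's Western blots showed loss of both major Ush polypeptides 4 days after transfection of dsRNA against ush. They also showed efficient depletion of the slower migrating one by dsRNA against Ush-B, in cells with tagged dMi-2. The 8 hemocyte markers summed to 3888 to 4673 in dsUsh cells, 13016 to 14588 in dsMi-2 cells and 9600 to 10985 in dsEGFP cells, and to 13599 to 18018 in dsUsh-B cells against 19521 to 25000 in their controls. They did not all move together. Of the 7 tested, 3 were lower and 1 higher in dsUsh cells (limma adjusted p under 0.01), beside 4.84% and 12.3% of all genes. In dsMi-2 cells 2 were higher, beside 4.34% of all genes, and 3 of the 7 had a log2 fold change below 0. In dsUsh-B cells 6 of the 7 lay below 0 and 0 were called. The transcription factor srp and the collagen Col4a1 were present among the 8, and the phagocytosis receptor NimC1 stayed at or under 6.11 normalised counts in every library. The summed 4 muscle markers were higher in dsUsh cells (54 to 69, against 35 to 48 in dsEGFP cells). Over the 3 of them tested, the log2 fold change had a median of 0.002 and a highest value of 2.67, so the list did not rise as a whole. The 4 neuronal markers, at 1259 to 2778 in the first set, overlapped in every comparison with controls, and the 4 fat body markers stayed at or under 10 normalised counts.

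Most members were abundant, and the few low ones were second copies of paralog pairs. In dsEGFP cells of the first set 83 of the 92 members averaged at least 1000 normalised counts (1121 to 270561, median 59937), 3 lay between 5 and 1000 and 6 lay under 5. In the controls of the Ush-B set the counts were 84, 3 and 5. Per kilobase of gene span, introns included, RpL41, which encodes the smallest protein of the ribosome, stood highest with a mean of 184999 normalised counts. RpLP2 followed with 153450 and RpLP1 with 121288, both acidic proteins of the stalk that recruits elongation factors. Over the dsEGFP libraries RpL41 ranged from 166461 to 218083, RpLP2 from 93914 to 192555 and RpLP1 from 90651 to 137746. RpLP2 overlapped both others, while RpL41 lay above RpLP1 in all libraries. At the low end of the tested members lay RpS10a with 13.7, RpL37b with 10.4 and RpL22-like with 2.63 normalised counts per kilobase, each a second copy of an abundant gene. RpL10Aa, RpS28a, RpS28-like and RpL7-like were too low to be tested in either set and RpL37b in the Ush-B set. They reached at most 0.93, 0.97, 2.11, 6.11 and 7.12 normalised counts in the libraries where they went untested. Their abundant partners RpL10Ab, RpS28b, RpL7 and RpL37a were all tested. The filter left 88 members in the first set and 87 in the Ush-B set.

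Ribosomal protein genes took a large share of all normalised counts, and a smaller one in dsUsh cells than in their controls. Their share was 17.9%, 18.4% and 17.2% in dsUsh cells, 22.4%, 23.5% and 24.0% in dsMi-2 cells and 19.9%, 22.5% and 23.0% in dsEGFP cells. All dsUsh libraries lay below all dsEGFP and dsMi-2 libraries, while dsMi-2 and dsEGFP overlapped. Genes of both subunits shared this order, with 6.38% to 6.98% for RpS genes in dsUsh cells against 7.74% to 8.45% in dsEGFP cells, and 10.8% to 11.5% for RpL genes in dsUsh cells against 12.2% to 14.5% in dsEGFP cells. In the Ush-B set the share was 18.2%, 17.9%, 21.4% and 18.2% in dsUsh-B cells, against 17.5%, 17.0%, 15.7% and 21.1% in the controls. Those groups overlapped, and dsUsh-B replicate 3 and control replicate 4 stood above the other libraries of their groups. Shares carry no test here, and a share can also fall where the counts of other genes rise. In dsUsh cells limma called 12.3% of all genes higher and 4.84% lower at an adjusted p under 0.01. The members' own normalised levels overlapped. Their median log2 deviation from the dsEGFP mean was -0.34 to -0.04 in dsUsh libraries and -0.22 to 0.16 in dsEGFP libraries. Bulk RNA cannot tell fewer transcripts per cell from a changed mixture of cells.

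**Figure D1:**
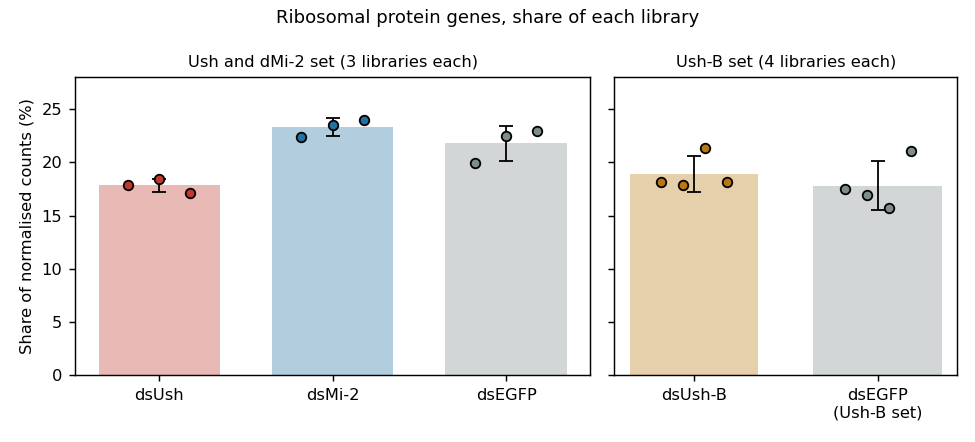
Share of all normalised counts (%) that fell on the 92 ribosomal protein genes, for each library (points), with group means (bars) and SD (error bars), dsUsh, dsMi-2 and dsEGFP on the left and dsUsh-B and its dsEGFP controls on the right. The dsUsh libraries sit between 17.2% and 18.4%, below all dsEGFP libraries (19.9% to 23.0%), and the Ush-B groups overlap.

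Upon depletion of Ush the members lay slightly lower as a group, but hardly any passed the test alone. Of the 88 members tested, 79 (89.8%) had a log2 fold change below 0, beside 50.8% of all 9132 genes tested. The median log2 fold change was -0.25 for the members (-0.25 for 40S and -0.24 for 60S genes), beside -0.01 for all genes. After quantile normalisation the members' median was -0.18 and that of all genes -0.20, so on that scale the members did not lie lower than other genes. That scaling gives every library the same distribution of values. It can thereby remove a shift shared by the most abundant genes, so it cannot decide whether the members lay lower. With it, limma called 5 members lower at 0.01. When single libraries were left out the members' median ran from -0.36 to -0.16, with -0.16 without dsEGFP replicate 3 and -0.16 without dsUsh replicate 3. At an adjusted p under 0.01, RpS19b was lower, and 0 members were higher in limma, edgeR and DESeq2. Among all genes tested, 4.84% were lower and 12.3% higher. At an unadjusted p under 0.05, 15 members were lower and 1, RpS10a, was higher, beside 17.6% and 23.0% of all genes. All dsUsh libraries lay below all dsEGFP libraries for 15 members (17.0%), beside 19.3% of all genes, and above them for RpS10a alone, beside 24.1% of all genes. The shares of members past the unadjusted threshold or without overlap were thus no larger than those of all genes, while the share with a negative sign was. DESeq2 on the recovered reads called 5 members lower, RpL21, RpL39 and RpS19b among them, and edgeR only RpS19b.

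RpS19b, a paralog of the 40S head protein RpS19a that is known mainly from the ovarian germline, was the member that fell. It had 293, 230 and 364 normalised counts in dsUsh cells, against 617, 563 and 556 in dsEGFP cells. The groups did not overlap, and the log2 fold change was -0.99 ± 0.22 (SE, n = 3 each, limma adjusted p = 0.00775). This call was lost in 9 of 24 alternatives, and over all of them the adjusted p ran from 0.000153 to 0.0882. Leaving out dsEGFP replicate 1, 2 or 3, dsUsh replicate 1 or 2 or dsMi-2 replicate 1 each lost it, with an adjusted p of at most 0.0284. RpL5 and RpL11, which carry the 5S ribosomal RNA into the large subunit, and RpL21, a 60S protein, were chosen after their values were seen because they stood among the lowest without overlap. RpL5 had 185053, 199542 and 205230 normalised counts in dsUsh cells, against 255775, 235442 and 320466 in dsEGFP cells. RpL11 had 51310, 59253 and 46986 in dsUsh cells, against 61138, 75438 and 74769 in dsEGFP cells. RpL21 had 60476, 60513 and 60922 in dsUsh cells, against 83131, 72431 and 87853 in dsEGFP cells. Their log2 fold changes of -0.45, -0.42 and -0.42 missed the threshold with adjusted p-values of 0.121, 0.0567 and 0.0518.

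The libraries of the first set also differed within groups. The median deviation of the 88 members from their dsEGFP mean was -0.28, -0.04 and -0.34 (log2) in the dsUsh libraries, -0.04, 0.10 and 0.16 in the dsMi-2 libraries and -0.22, 0.10 and 0.16 in the dsEGFP libraries. Control replicate 1 thus lay nearer to dsUsh replicates 1 and 3 than to the other controls, and dsUsh replicate 2 lay near the control mean. The median over all genes stayed within 0.013 of 0 in each of these libraries. The replicate numbers paired the libraries, and within a number the dsUsh median lay below that of dsEGFP each time. The main limma fit and the permutation tests did not use this pairing. With the replicate number as a block, RpS19b in dsUsh cells had a limma adjusted p of 0.00141. Without replicate 1 of every group the members' median was -0.34, with 0 members called.

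Upon depletion of dMi-2 the abundant members lay close to the controls, and the only members that passed the test were RpS10a and RpS19b, which are second copies of paralog pairs. The median log2 fold change over 88 members was 0.06, and 66 of 88 lay above 0. Over all genes the median was -0.01, and 48.89% lay above 0. RpS10a was higher and RpS19b lower at an adjusted p under 0.01, beside 4.34% and 1.95% of all genes. At an unadjusted p under 0.05, 5 members were higher and 1 lower, beside 14.7% and 12.7% of all genes. All dsMi-2 libraries lay above all dsEGFP libraries for 9 members and below them for 1, beside 16.5% and 15.5% of all genes. Of the 83 members with a mean of at least 1000 over the set, limma called 0, and 1 had an unadjusted p under 0.05. Without dsEGFP replicate 1 the members' median turned to -0.07, so the sign of the median rested on that library, while the directions of RpS10a and RpS19b held in every alternative that tested them.

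RpS10a, a second copy of the 40S protein RpS10 known mainly from the gonads, rose. It had 71.8, 82.6 and 57.5 normalised counts in dsMi-2 cells, against 9.95, 4.17 and 10.7 in dsEGFP cells, a log2 fold change of 3.03 ± 0.40 (SE, n = 3 each, limma adjusted p = 0.00119) or 8.14-fold. In dsUsh cells it had 27.8, 13.6 and 18.1 normalised counts, which also lay above all controls (log2 fold change 1.20 ± 0.40, adjusted p = 0.0477, short of 0.01). The gene tau overlaps RpS10a in the Release 6 annotation and had 0.995 to 5.85 normalised counts in dsMi-2 cells, against 3.62 to 11.7 in dsEGFP cells. RpS19b fell. It had 163, 109 and 176 normalised counts in dsMi-2 cells, against 617, 563 and 556 in dsEGFP cells (log2 fold change -1.97 ± 0.22, adjusted p = 0.000473). Both calls were lost among the alternatives only without replicate 1 of every group, at adjusted p-values of 0.0206 for RpS10a and 0.0175 for RpS19b. RpS10a left the table under a filter at a mean of 50.

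Further second copies lay higher in dsMi-2 cells without passing 0.01. With the replicate number as a block 2 members were higher at 0.01. Without dsEGFP replicate 2 RpL22-like passed (log2 fold change 3.38, adjusted p = 0.00861). RpL22-like, known from the testis, had 14.6, 23.9 and 12.7 normalised counts in dsMi-2 cells, against 1.81, 8.33 and 0 in dsEGFP cells (log2 fold change 2.55 ± 0.72, adjusted p = 0.0444). RpL37b, the minor copy of a zinc-binding 60S protein, had 12.6, 16.9 and 15.6 in dsMi-2 cells, against 2.71, 7.29 and 3.20 in dsEGFP cells (1.66 ± 0.42, adjusted p = 0.0287). RpL22-like reached the filter of a mean of 5 only through its dsMi-2 values, so that it was tested depended on those values. RpL37b lay near that filter in the other libraries, at 2.71 to 7.29 in dsEGFP cells and 4.27 to 6.95 in dsUsh cells. RpS15Ab, a second copy that is itself fairly abundant, had 1408, 1375 and 1469 in dsMi-2 cells, against 1165, 1177 and 1021 in dsEGFP cells (0.34 ± 0.10, adjusted p = 0.05).

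Because several of these copies are known from germ cells, a list of 6 germline genes stands beside them. It summed to 588 to 780 normalised counts in dsMi-2 cells, 150 to 318 in dsUsh cells and 224 to 387 in dsEGFP cells. The piRNA gene aub made up most of the difference, with 494, 344 and 281 in dsMi-2 cells against 142, 22.9 and 43.7 in dsEGFP cells (log2 fold change 2.77 ± 0.70, limma adjusted p = 0.0276). The RNA helicase gene vas stayed at or under 9.95 normalised counts in both groups. All 5 germline genes tested had a log2 fold change above 0, with a median of 0.94, beside -0.01 over all genes. In limma and edgeR 0 of the 5 passed 0.01 and in DESeq2 1 did, beside 4.34% of all genes higher in limma. At an unadjusted p under 0.05, 2 of the 5 were higher, beside 14.7% of all genes. RpS19b, itself a gene of the ovary, moved the other way. The part of germline-type expression in these values was not tested.

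Set against dMi-2 depletion, Ush depletion left most members lower. The comparison is a contrast in the same fit, and the libraries of both depletions were also those compared with the shared dsEGFP libraries above. The median log2 fold change of dsUsh over dsMi-2 was -0.31, with 85 of 88 members below 0. For all genes it was -0.01, with 51.15% below 0. All dsUsh libraries lay below all dsMi-2 libraries for 42 members (47.7%), beside 25.1% of all genes, and above them for RpS19b alone, beside 27.0%. At an unadjusted p under 0.05, 27 members were lower and 1 higher, beside 21.1% and 24.8% of all genes. At an adjusted p under 0.01, RpS10a, RpL24-like and RpS15Ab were lower and RpS19b higher, beside 8.31% and 14.5% of all genes. RpS10a differed by -1.82 ± 0.40 (limma adjusted p = 0.00606), RpS15Ab by -0.42 ± 0.10 (adjusted p = 0.0094) and RpS19b by 0.98 ± 0.22 (adjusted p = 0.00656). RpL24-like, the counterpart of the yeast 60S assembly factor Rlp24, had 3733, 4466 and 3572 normalised counts in dsUsh cells, against 5930, 6106 and 6797 in dsMi-2 cells (-0.68 ± 0.16, adjusted p = 0.00744). The number lower depended on the processing. It was 12 with total-count scaling or quantile normalisation, 10 with DESeq2, 5 with the replicate block and 3 with edgeR. It was 0 without dsUsh replicate 3 or without dsMi-2 replicate 1, 2 or 3, and 1 without dsEGFP replicate 2 or dsUsh replicate 1 or 2. The call of RpS19b was lost without dsEGFP replicate 1 or 2, dsUsh replicate 1 or 3 or dsMi-2 replicate 1 or 2.

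**Figure D2:**
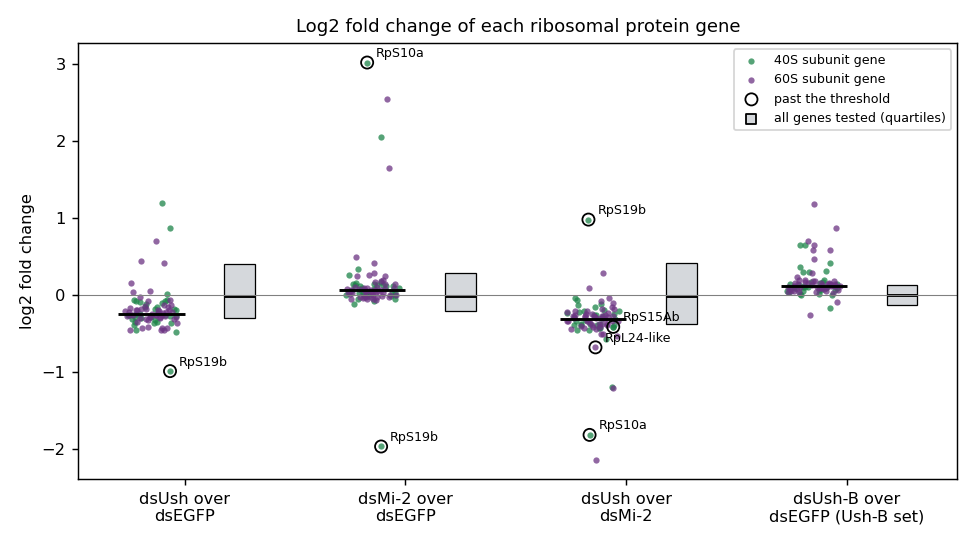
Log2 fold change of each tested ribosomal protein gene (points, 40S green, 60S purple) in 4 comparisons, with the members' median (line), genes past the threshold (rings) and the quartiles and median of all genes tested (grey boxes). The members' medians are -0.25, 0.06, -0.31 and 0.11, and the points far from the bulk are mostly second copies of paralog pairs.

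Upon depletion of Ush-B 0 of 87 members passed an adjusted p under 0.05 in either direction in limma. Among all 9648 genes tested, 1 was higher (0.0104%) and 0 lower (0.00%). At an unadjusted p under 0.05, 9 members were higher and 0 lower, beside 4.08% and 3.01% of all genes. These were RpL3, RpL10Ab, RpL15, RpL18, RpL22, RpL30, RpS12, RpS20 and RpS25. The edgeR test called 0 members, and DESeq2 called RpL18 higher. Of all genes tested, 49.95% had a log2 fold change above 0, and their median was 0.00. Among the members the median log2 fold change was 0.11, with 83 of 87 above 0. The size of this median depended on single libraries and on the scaling. The median was 0.24 without control replicate 4, 0.03 without dsUsh-B replicate 3 and 0.15 without both of these. It was 0.06 without control replicate 3, 0.05 with total-count scaling and 0.01 after quantile normalisation. Control replicate 4 and dsUsh-B replicate 3 lay high for nearly all members, with 83 of 87 above the control mean in each and median deviations of 0.42 in dsUsh-B replicate 3 and 0.38 in control replicate 4. The other dsUsh-B libraries had 0.05, 0.03 and 0.05, and the other controls -0.08, -0.06 and -0.20.

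**Figure D3:**
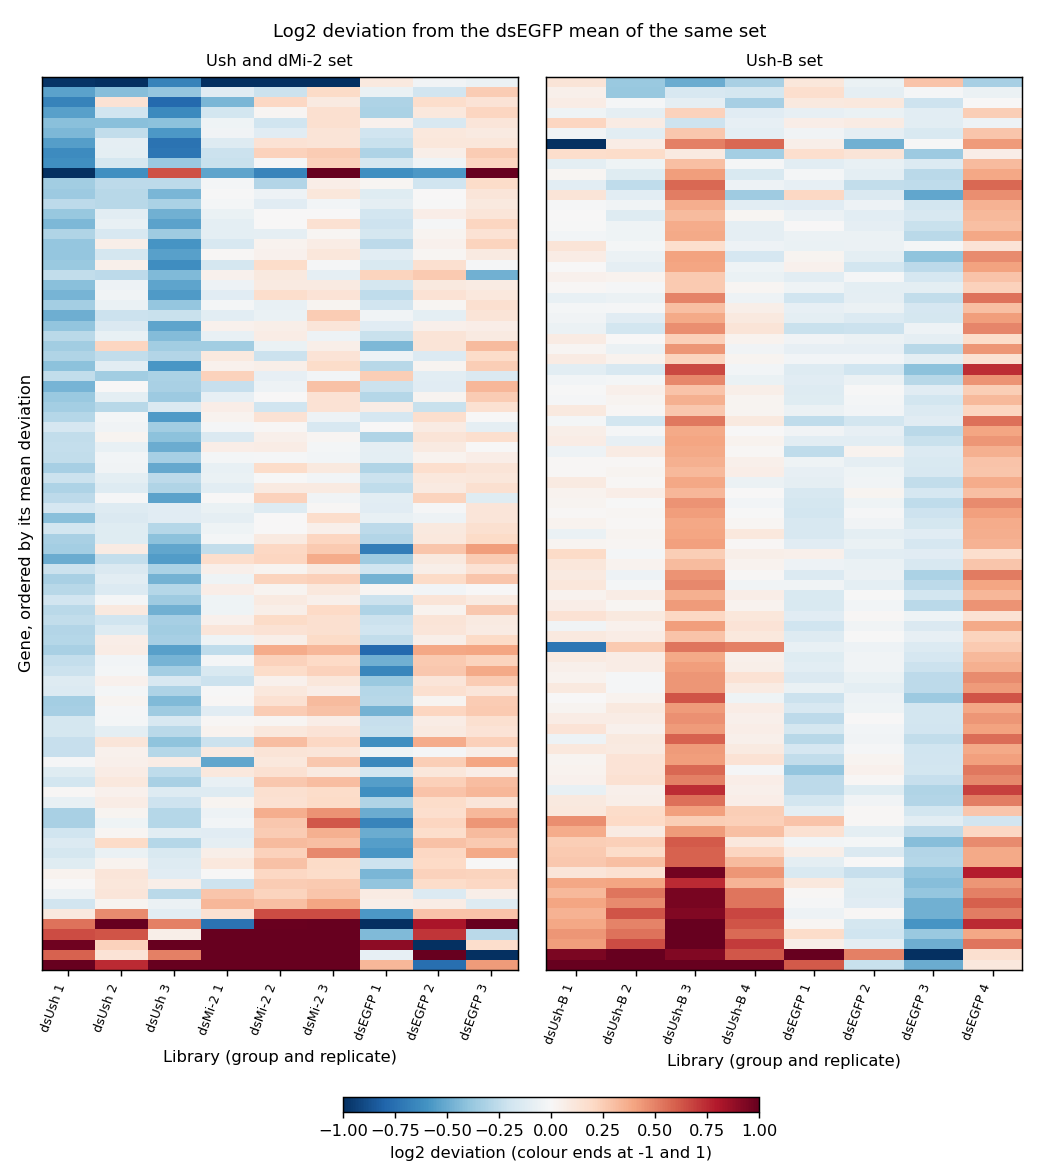
Log2 deviation of each tested ribosomal protein gene (rows, ordered by mean deviation) from the dsEGFP mean of its set in each library (columns), red above and blue below, with colours ending at -1 and 1. The columns of dsUsh-B replicate 3 and of control replicate 4 in the Ush-B set (right) are red for 83 of 87 genes each, with medians of 0.42 and 0.38.

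RpL18 and RpS25 were the only members whose dsUsh-B libraries all lay above all controls, beside 2.23% of all genes, and 0 lay below, beside 1.79%. Both are named because of their values. RpL18, a 60S protein, had 58951, 59438, 66343 and 61749 normalised counts in dsUsh-B cells, against 41374, 23263, 19182 and 29086 in their controls. Its log2 fold change was 1.19 ± 0.21 (SE, n = 4 each, limma adjusted p = 0.301, unadjusted p = 0.000308), and DESeq2 gave an adjusted p of 0.000267. It was called by limma without control replicate 1 (1.39, adjusted p = 0.0306). Over all alternatives its adjusted p ran from 0.000267 to 0.997. BHD, which overlaps RpL18, had 417 to 502 normalised counts in dsUsh-B cells, against 388 to 510 in the controls. RpS25, a 40S protein that some viral internal ribosome entry sites need, had 120359, 128791, 182432 and 130897 in dsUsh-B cells, against 100469, 77142, 68412 and 115395 in the controls (0.65 ± 0.20, adjusted p = 0.57). In the first set neither gene stood apart in dsUsh cells, with log2 fold changes of 0.15 for RpL18 and -0.07 for RpS25.

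Many ribosomal protein genes host, within their span, genes of small nucleolar RNAs, which guide the modification of ribosomal RNA. Of 28 such members 7 were among the 9 higher past the unadjusted threshold after Ush-B depletion. Of the 59 other members tested 2 were, beside 4.08% of all genes. This split was noticed after the values were seen and carries no test. The median log2 fold change was 0.115 both for members with and for members without such a gene. The 2 proteins of the small subunit that the naming rule misses, sta (the laminin receptor homolog) and Rack1, had log2 fold changes of 0.44 and 0.62 after Ush-B depletion (limma adjusted p = 0.682 and 0.604). In replicates 1 and 2 alone the members' median difference was 0.12 and in replicates 3 and 4 it was also 0.12, and RpL18 differed by 0.93 and 1.44.

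A few abundant members varied strongly among control libraries, and RpL22 and RpL38 are named for that spread. RpL22, an RNA-binding 60S protein, had 3015, 20071 and 24463 normalised counts in dsEGFP cells, an 8.11-fold range and a coefficient of variation of 71.5%. Replicate 1 was also the low one in dsMi-2 cells, with 6812 against 22654 and 22714, and not in dsUsh cells, with 16573, 24071 and 16143. RpL38, a small 60S protein and known Minute gene, had 5404, 9270 and 21979 in dsUsh cells, 9822, 8968 and 38374 in dsMi-2 cells and 9263, 9512 and 32284 in dsEGFP cells. Replicate 3 was the high one in all groups, and the coefficient of variation in dsEGFP cells was 77.7%. The next highest among members of at least 1000 normalised counts was 39.3% for RpL34b. The log2 fold changes of RpL22 and RpL38 after Ush depletion, 0.71 ± 0.74 and -0.46 ± 0.70, were within their errors.

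**Figure D4:**
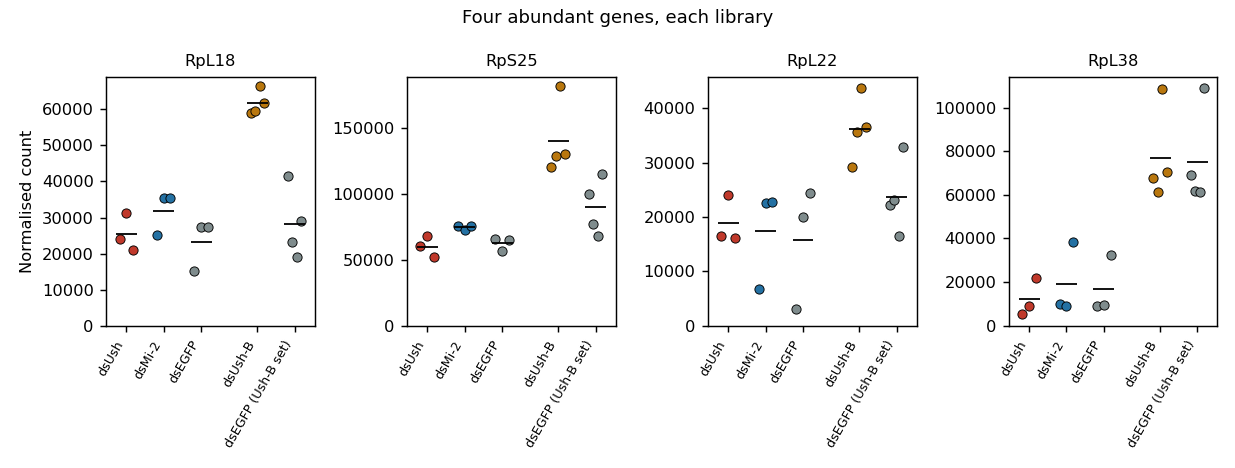
Normalised counts of RpL18, RpS25, RpL22 and RpL38 in each library (points) with group means (lines), depleted groups left of their controls. RpL18 lies between 58951 and 66343 in dsUsh-B cells, above its controls (19182 to 41374), whereas RpL22 and RpL38 differ most between libraries of the same group.

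RpL32, known as rp49 and used as the reference gene of the study's RT-qPCR, lay close to the members' medians. It had 31115, 32609 and 28991 normalised counts in dsUsh cells, 37364, 36739 and 38721 in dsMi-2 cells and 31444, 37488 and 39892 in dsEGFP cells. The log2 fold changes were -0.23 in dsUsh cells (limma adjusted p = 0.187) and 0.06 in dsMi-2 cells (adjusted p = 0.812), and both groups overlapped the controls. The dsUsh and dsMi-2 libraries did not overlap each other (log2 difference -0.29, adjusted p = 0.09). In the Ush-B set RpL32 had 66810, 63626, 83190 and 64087 in dsUsh-B cells, against 62434, 60492, 53071 and 84151 in the controls (0.11, adjusted p = 0.919).

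The 14 paralog pairs fell into pairs shared between copies and pairs that a single copy carried. In dsEGFP cells of the first set RpL34a held 18.7% to 34.4% of the reads of its pair and RpS14b 18.6% to 22.9%. RpL24-like held 8.18% to 11.2%, RpLP0-like 2.88% to 5.25%, RpS15Ab 2.33% to 3.45% and RpS19b 1.02% to 1.74%. RpL22-like held at most 0.0600%, RpS10a 0.00761% to 0.0290% and RpL37b 0.00673% to 0.0154%. RpL24-like and RpLP0-like were paired here by their names, and their yeast counterparts Rlp24 and Mrt4 act in assembly of the large subunit. Reads that fit both copies could be split between them, and how the counting treated such reads is not given in the sources used here.

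The log2 ratio between copies was taken on normalised counts plus 1. Where both copies are abundant, it hardly depends on the scaling of a library. Where a copy has few counts, the added number matters. With 5 added instead, the difference between dsMi-2 and dsEGFP cells went from 2.86 to 2.37 for RpS10a over RpS10b. For RpL37a over RpL37b it went from -1.69 to -1.15. The ratio was compared in 10 pairs per depletion in the first set and 9 in the Ush-B set, 29 exact two-sided permutation tests in all. With 3 against 3 libraries the smallest possible p is 0.1 and with 4 against 4 it is 0.02857, and all adjusted p-values were at least 0.446. In dsMi-2 cells the ratios of 4 pairs did not overlap those of dsEGFP cells, 3 of which are given here. The log2 ratio of RpS10a to RpS10b was -9.58 ± 0.41 in dsMi-2 cells and -12.4 ± 0.88 in dsEGFP cells (SD, n = 3 each, exact permutation p = 0.1). That of RpS19a to RpS19b was 8.24 ± 0.43 in dsMi-2 cells and 6.29 ± 0.41 in dsEGFP cells (SD, n = 3 each, exact permutation p = 0.1). RpL37a over RpL37b gave 11.4 ± 0.17 in dsMi-2 cells and 13.1 ± 0.53 in dsEGFP cells (SD, n = 3 each, exact permutation p = 0.1). That ratio rests on few RpL37b reads, 3 to 7 in dsEGFP and 13 to 17 in dsMi-2 libraries. Its lack of overlap is therefore not taken as support for a difference. The abundant partner RpS10b overlapped between the groups, with 44767, 57847 and 62009 normalised counts in dsMi-2 cells against 34306, 54750 and 60353 in dsEGFP cells, and so did RpS19a.

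In dsUsh cells only the pair RpS19a and RpS19b had ratios that did not overlap the controls, 7.20 ± 0.43 in dsUsh cells and 6.29 ± 0.41 in dsEGFP cells (SD, n = 3 each, exact permutation p = 0.1). RpS19b made up 0.491% to 0.892% of the reads of its pair in dsUsh cells and 0.234% to 0.416% in dsMi-2 cells, against 1.02% to 1.74% in dsEGFP cells. In dsUsh-B cells the pair's ratio overlapped the controls, and RpS19b had 1375, 1255, 1028 and 1118 normalised counts against 1244, 1255, 1103 and 1146. RpS10a had 15.8, 32.4, 39.2 and 38.5 in dsUsh-B cells, against 25.4, 25.9, 24.3 and 32.4 in the controls, which overlapped as well. The pair of the stalk protein RpLP0 and RpLP0-like was the 1 without overlap after Ush-B depletion, with a log2 ratio of 4.69 ± 0.16 in dsUsh-B cells and 4.14 ± 0.26 in the controls (SD, n = 4 each, exact permutation p = 0.02857, adjusted p = 0.446). RpLP0 had 143797, 119529, 123140 and 122595 normalised counts in dsUsh-B cells against 126753, 104544, 96751 and 91062, and RpLP0-like had 6442, 4570, 4177 and 4719 against 6394, 5637, 7213 and 4683. Jra overlaps RpLP0-like and had 4229 to 5141 in dsUsh-B cells, against 3999 to 4148 in the controls. How its reads bore on RpLP0-like was not tested.

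**Figure D5:**
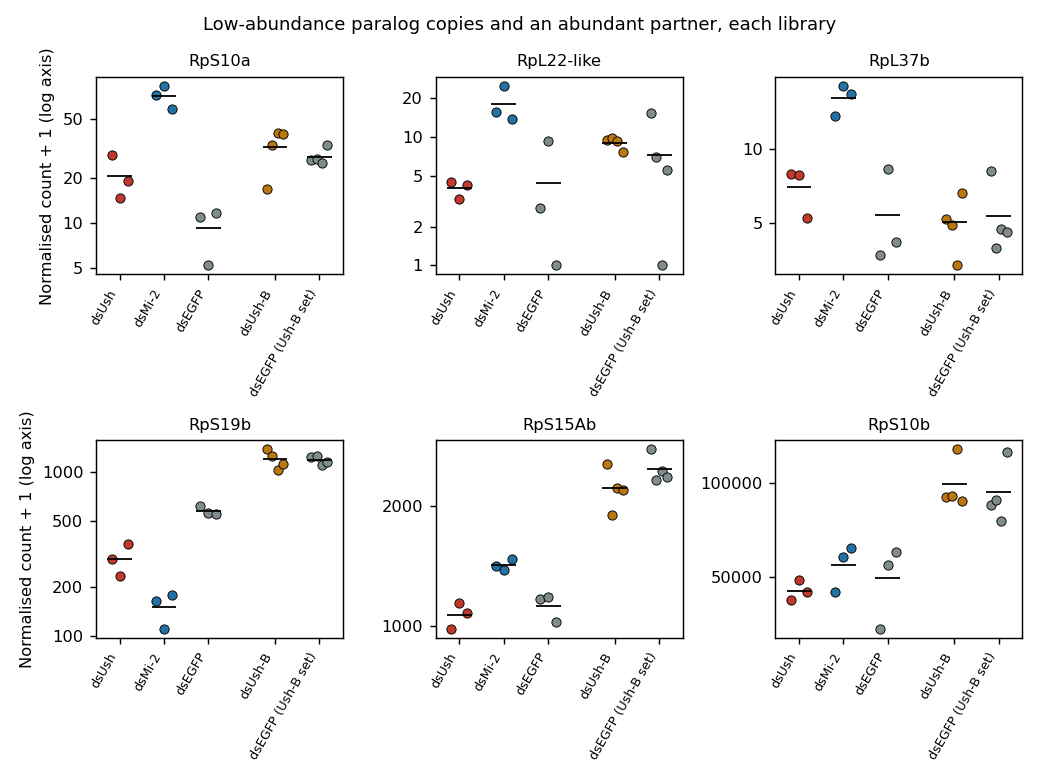
Normalised counts plus 1 (log axes that differ between panels) of 5 second copies of paralog pairs and of the abundant partner RpS10b in each library (points) with group means (lines), depleted groups left of their controls. RpS10a, RpL22-like and RpL37b lie higher in every dsMi-2 library than in the dsEGFP libraries, RpS19b lies lower in dsUsh and dsMi-2 cells, and the Ush-B groups overlap in all 5 second copies.

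Other genes of protein synthesis were described by the same counts. Upon Ush depletion, 30 ribosome biogenesis genes, which process ribosomal RNA and assemble subunits, had a median log2 fold change of -0.39, and 8 genes of RNA polymerase I and its factors one of -0.37. Limma and edgeR called 0 of them at 0.01, DESeq2 called 6 biogenesis genes lower, and at an unadjusted p under 0.05, 18 and 6 were lower. The 8 elongation factor genes had a median of -0.21, with 0 called in limma and edgeR, 1 lower in DESeq2 and 1 lower at an unadjusted p under 0.05. The genes sta and Rack1 had a median of -0.24, with 0 called by any tool or at an unadjusted p under 0.05. Of 72 mitochondrial ribosomal protein genes tested, 5 fell in limma, 6 in edgeR and 8 in DESeq2, 23 were lower at an unadjusted p under 0.05, and the median was -0.23. None rose in the 3 tools, and 0 were higher at an unadjusted p under 0.05. Over all genes 4.84% were lower and 12.3% higher in limma, and 17.6% and 23.0% at the unadjusted threshold.

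After dMi-2 depletion the medians of these 5 lists lay between -0.04 and 0.08. Limma called 1 mitochondrial ribosomal protein gene lower and 0 other genes of the lists, edgeR gave the same counts and DESeq2 called 1 mitochondrial gene higher and 2 lower. At an unadjusted p under 0.05, 1 biogenesis gene and 3 mitochondrial genes were higher, 4 mitochondrial genes were lower, and 0 genes of the other lists passed. Over all genes 4.34% were higher and 1.95% lower in limma, and 14.7% and 12.7% at the unadjusted threshold. Against dsMi-2 cells, dsUsh cells had 5 of 30 biogenesis genes and 2 of 8 RNA polymerase I genes lower, with medians of -0.47 and -0.34, and 10 of 72 mitochondrial ribosomal protein genes lower, with a median of -0.30, beside 8.31% of all genes lower and 14.5% higher. After Ush-B depletion 28 of 30 biogenesis genes and all 8 RNA polymerase I genes lay below 0 (medians -0.19 and -0.17), whereas the ribosomal protein genes lay above it. All 3 tools called 0 genes of the 5 lists there, and at an unadjusted p under 0.05 there were 3 biogenesis genes and 1 RNA polymerase I gene lower, sta and Rack1 higher, 0 elongation factor genes and 3 mitochondrial ribosomal protein genes lower and 1 higher. Over all genes 4.08% were higher and 3.01% lower at that threshold.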

How the data were processed

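Per the labels and the study's methods, RNA-seq libraries were made with a TruSeq Stranded mRNA kit, aligned with RNA STAR to the transcriptome and counted per gene with featureCounts. The deposited signal values are gene counts that the authors divided by DESeq2 size factors. The submitters' processing notes list featureCounts 1.6.2 and DESeq2 2.11.40.2. Annotation, use of strand and treatment of reads with several matches are not given in the sources used here. All values were whole multiples of a step per library (100%, tolerance 0.05), so whole reads were recovered. Deposited tables of the authors' own comparisons (log2 fold changes, standard errors, p-values) and the 4 ChIP-seq samples were not used.

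In R 4.3.3, limma 3.58.1 was run with a trend on log2 of the normalised count plus 1, for genes with a mean of at least 5, over the 9 or 8 libraries of a set. It was two-sided with Benjamini-Hochberg adjustment over all genes tested, at 0.01 (0.05 for Ush-B). Fold changes are on this scale and understate changes of low genes. Alternatives changed pseudocount, filter, scaling, trend, block, tool (edgeR 4.0.16 or DESeq2 1.42.0 on recovered reads), threshold and libraries. Those without replicate 1 of every group and without dsUsh-B replicate 3 and control replicate 4 were chosen after seeing the data. The scripts were tested on simulated data. Replicate numbers were taken to pair the first set, since the deviations of same-numbered libraries correlated at 0.239 to 0.569 in all 9 pairs.

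Names, spans and overlaps came from a RefSeq table of Release 6, which matched all 92 members. Genes reported by name were RpL32, members of paralog pairs, per comparison the 5 largest rises and falls among called genes with non-overlapping groups and a mean over 50, and the 3 highest and 3 lowest members per kilobase. Others were chosen after their values were seen. Some members, a paralog pair included, entered all counts but are not reported here. Members, pairs and lists were chosen with earlier results of these data known.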

Additional observations from a re-analysis of the deposited data

Results flagged for a closer look

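Within groups of 4 libraries, 13 of 60 values checked stood apart from the other libraries of their group by Dixon's criterion, which chance alone meets in about 1 of 20 groups. All are highest values in the Ush-B set. In dsUsh-B replicate 3 these were the share of ribosomal protein genes (21.4%) and the normalised counts of RpL24-like (18628), RpL32 (83190), RpL37a (102090), RpL5 (778201), RpS10b (127683), RpS14a (54855) and RpS28b (189472). In replicate 4 of the controls they were RpL24-like (17870), RpL38 (108772), RpL5 (801417) and RpS19a (101685). RpLP0 (143797) was high in dsUsh-B replicate 1. The values of a library are not independent of each other, so the flags of replicate 3 and of control replicate 4 come from 2 libraries and are not separate observations. Over all genes tested, the deviations of these 2 libraries from their group means correlated at 0.762, while same-numbered pairs of the set reached at most 0.66. What the 2 libraries share was not tested further.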

How the results depend on the processing

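Among the members, the number lower in dsUsh against dsEGFP (1) was 5 with quantile normalisation, 5 with DESeq2, 0 without the trend in limma, 0 without replicate 1 of every group and 0 to 1 when libraries were left out singly, and the number higher (0) was 1 at a threshold of 0.05. For dsMi-2 against dsEGFP the number higher (1) was 0 with a filter at a mean of 50, 2 with the replicate block, 2 with DESeq2, 0 without replicate 1 of every group, 4 at 0.05 and 1 to 2 when libraries were left out, and the number lower (1) was 0 without replicate 1 of every group. The members' median (0.061) reversed to -0.073 without dsEGFP replicate 1, within a range of -0.073 to 0.131 when libraries were left out. For dsUsh against dsMi-2 the number higher (1) was 0 with upper-quartile or total-count scaling, without the trend, and without replicate 1 of every group, and 0 to 1 when libraries were left out. The number lower (3) was 1 without a filter, 12 with total-count scaling, 12 with quantile normalisation, 1 without the trend, 5 with the replicate block, 10 with DESeq2, 0 without replicate 1 of every group, 12 at 0.05 and 0 to 3 when libraries were left out. For dsUsh-B against its controls the number higher (0) was 1 with DESeq2 and 0 to 1 when libraries were left out. There same-numbered libraries correlated at -0.05 to 0.66 and differently numbered ones at -0.607 to 0.762, so the numbers did not pair all libraries. Control replicate 4 correlated with dsUsh-B replicate 3 at 0.762, and control replicate 3 with dsUsh-B replicate 4 at 0.517. The replicate block gave 0 calls and a median of 0.11, but it used the numbers as given and cannot stand for a pairing in another order. Such a pairing was not tested, and the other Ush-B tests were unpaired. Paralog pairs without overlap numbered 2 to 5 for dsUsh (1 in full) when libraries were left out, with 5 without dsEGFP replicate 1, 4 without dsUsh replicate 2 or dsEGFP replicate 3 and 2 without each other one. They numbered 4 to 7 for dsMi-2 (4 in full, 7 without dsEGFP replicate 1) and 1 to 2 for dsUsh-B (1 in full, 2 without dsUsh-B replicate 1). The fold change of RpL32 in dsMi-2 cells (0.06) reversed to -0.041 without dsEGFP replicate 1 (range -0.041 to 0.131 when libraries were left out) and to -0.036 without replicate 1 of every group. That of RpS19b in dsUsh-B cells (0.00) reversed to -0.004 with TMM and -0.059 with total counts, and ran from -0.069 to 0.071 when libraries were left out. The cause of these changes was not tested. For members under 10 reads per library counting error limits the values, and 3 libraries a group limit the permutation tests.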

Other observations

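Position on the chromosomes was looked at beside the reported comparisons, without a test. The 14 members on the X chromosome had a median log2 fold change of -0.17 after Ush depletion, beside -0.26 for the 74 autosomal members tested. After dMi-2 depletion the medians were 0.00 and 0.07, and after Ush-B depletion 0.07 and 0.13. In the annotation used for names, 49 of the 92 members overlap another gene, 25 of them a protein-coding one, so reads of these members and their neighbours are uncertain in part if the counting did not use strand.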
